A study of Mus musculus with 17 samples.

Results

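The comparison set whole blood of mice given 3.0 Gy of X-rays against whole blood of mice given 1.0 Gy, to ask what the higher of these whole-body doses added to the blood transcriptome. It compared 8 of the 17 arrays of the series, 4 from mice at 3.0 Gy and 4 from mice at 1.0 Gy. The 5 arrays of unirradiated control mice served as a reference level. The remaining 4 arrays, of mice given 0.5 Gy, are not described, but they entered the filter and the fit. All groups were female C57BL/6JJcl mice, an inbred laboratory strain, aged 8 weeks, with no transgene or other agent named in the labels, and blood was taken 24 h after exposure. Each array held the total RNA of 1 mouse, and the labels call the mice biological replicates. The members are all genes with a probe set that carries 1 gene symbol, 18193 in all, of which 12696 passed a filter on low values and were tested. Levels are log2 values summarised by robust multi-array average (RMA), in which a step of 1 is a 2-fold difference, and errors of group means are SDs over 4 mice (5 for control). Differences are 3.0 Gy minus 1.0 Gy with limma's standard errors (SE) from a fit over all 17 arrays. A gene was called at an adjusted p under 0.05.

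Ionising radiation breaks DNA, and the p53 protein answers by switching on genes for cell-cycle arrest, repair and death. Blood holds cells of very unequal sensitivity: B and T lymphocytes die readily after irradiation, neutrophils and monocytes are renewed from radiosensitive precursors in the marrow, and platelets and red cells carry RNA but no nucleus. In whole blood a transcript can therefore rise or fall because the share of a cell type in the blood changed or because its cells made more or less of it. A changed share of a cell type and a changed level per cell cannot be told apart in these samples, for rises as for falls.

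Of the 34 blood cell markers measured, 32 lay above their array's median level on all 8 arrays, but 6 of 9 markers of other tissues did so too, the highest being Ttr with means of 6.76 at 3.0 Gy and 6.37 at 1.0 Gy. A level above the array median, which lay between 3.47 and 3.57 over the series, therefore does not by itself show expression. All 9 markers of other tissues had a higher mean at 3.0 Gy than at 1.0 Gy. The gaps ran from that of Apoa1 (4.73 against 4.70) to that of Sftpc (4.59 against 3.86), and Ckm had 4.83 against 4.40. Rises of such sizes were thus also seen in genes not expected in blood, and their cause was not tested. Over all probe sets, 12 pairs of arrays within a dose correlated with a median r of 0.986 (0.973 to 0.989) and 16 pairs between the doses with a median r of 0.959 (0.938 to 0.980). The first principal component of the 8 arrays separated the doses, with scores of 12.47 to 44.08 at 3.0 Gy and -43.02 to -9.01 at 1.0 Gy. The array nearest the other dose was replicate 2 at 3.0 Gy (12.47) and replicate 3 at 1.0 Gy (-9.01). Control probe sets for 18S ribosomal RNA averaged 10.68 ± 0.14 at 3.0 Gy, 13.28 ± 0.28 at 1.0 Gy and 10.52 ± 0.49 in controls, so the 3.0 Gy and 1.0 Gy arrays did not overlap (two-sided exact permutation test over 70 regroupings, p = 0.0286, the smallest they can give, adjusted p = 0.0476 over 5 array measures). The array median, at 3.556 ± 0.010 at 3.0 Gy, 3.501 ± 0.031 at 1.0 Gy and 3.510 ± 0.034 in controls, did not overlap between the doses either. Nor did the 75th percentile of the arrays, at 4.795 ± 0.027, 4.901 ± 0.031 and 4.902 ± 0.033 in the same order. Both had an adjusted p of 0.0476 in the same permutation test. Within these 8 arrays the dose cannot be told apart from the 18S level or from these measures. The control arrays lay at the 18S level of the 3.0 Gy arrays, and the control level of each gene group is given beside it.

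**Figure D1:**
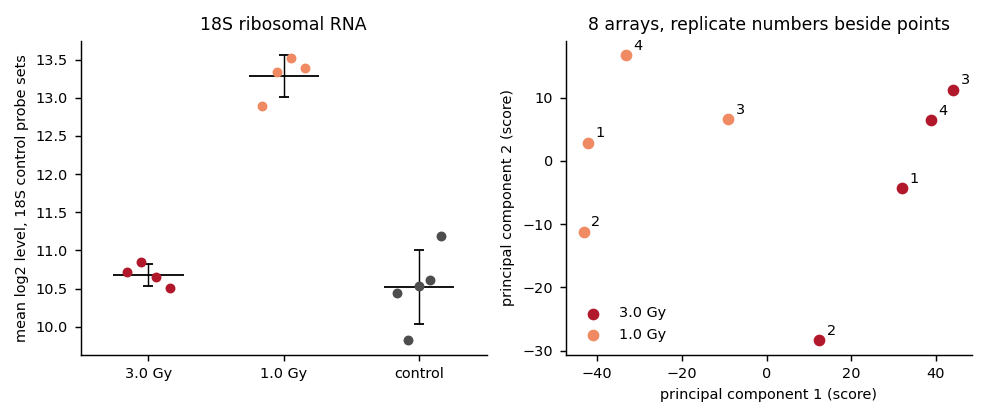
Left, mean log2 level of the 18S control probe sets in each mouse (points), with the group mean (line) and SD (bar). Right, scores of the 8 arrays on the first 2 principal components, where replicate 2 at 3.0 Gy and replicate 3 at 1.0 Gy lie nearest the other dose.

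Between the doses 4904 of 12696 genes were called (38.6%), 2016 higher at 3.0 Gy (15.9%) and 2888 lower (22.7%). Large differences ran mainly downward, with 985 genes at least 2-fold lower (7.76%) and 33 at least 2-fold higher (0.26%). The median difference over all genes tested was 0.06. The arrays of the 2 doses did not overlap in 1569 genes with 3.0 Gy above (12.4%) and in 2319 with 3.0 Gy below (18.3%), so a lack of overlap was common. The split depends on the scaling: with all arrays set to 1 median, 3862 genes were called higher and 2452 lower, and with quantile normalization repeated, 3557 and 2469. Without the 2 arrays nearest the other dose, 5816 genes were called, 2589 higher and 3227 lower. Fitted on the 8 arrays at 3.0 and 1.0 Gy alone, 4042 genes were called, 1384 higher and 2658 lower. The count at least 2-fold higher turned on single mice, with 115 genes without 3.0 Gy replicate 2 and 18 without 3.0 Gy replicate 4, and the count called higher fell to 1200 and 1215 without 1.0 Gy replicates 1 and 2. With the 18S level as a covariate no gene was called (0 of 12696; 1516 at an unadjusted p under 0.05 in limma). Over the 4904 called genes that covariate moved the median size of the difference to 0.51, against 0.61 without it, and the median SE to 0.38, against 0.16, while 4565 genes kept their sign.

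The 12 largest falls among called genes whose arrays did not overlap were Ighv14-2, Pou2af1, H2-Ob, Cnn3, Spib, Ms4a1, Bank1, Fcmr, Sbk1, Bach2, P2ry10 and Cd79b, with differences of -3.97 to -3.06. Most of them are known from B cells. The 12 largest rises were Ifitm1, Wfdc17, Wfdc21, S100a9, Stfa2l1, S100a8, Lcn2, Ttc16, Ly6g6c, Fpr2, Hbb-y and Tmem202, between 1.20 and 1.80. S100a8, S100a9, Lcn2, Fpr2, Stfa2l1 and Wfdc21 belong to the neutrophil list below.

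**Figure D2:**
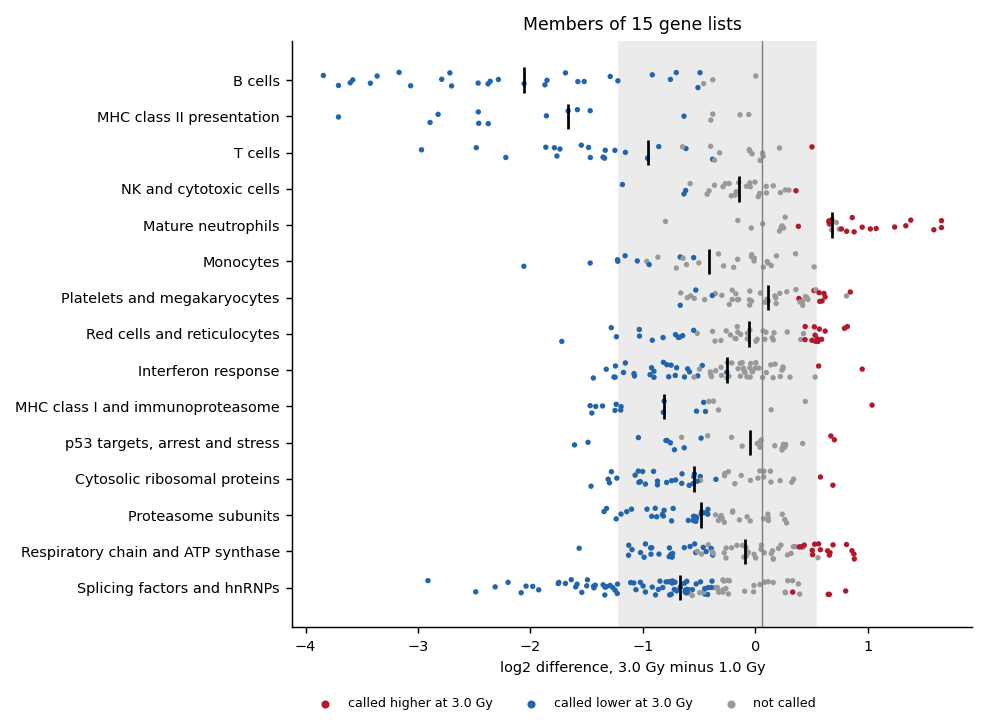
Log2 difference, 3.0 Gy minus 1.0 Gy, of each tested member (point) of 15 gene lists, coloured by call. Black ticks are list medians, the grey line is the median of all genes tested (0.06), and the shaded band runs from their 5th percentile (-1.21) to their 95th (0.54). The B-cell and MHC class II medians lie left of the band, and the neutrophil median right of it.

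B-cell genes fell together. Of 31 tested, 28 were called lower and 0 higher, against 22.7% and 15.9% of all genes, with a median difference of -2.06, against 0.06 over all genes. The mean level of the list was 5.27 ± 0.54 at 3.0 Gy, 7.29 ± 0.25 at 1.0 Gy and 7.55 ± 0.31 in controls. The range over mice was 4.92 to 6.07 at 3.0 Gy, 7.02 to 7.62 at 1.0 Gy and 7.32 to 7.99 in controls, so every 3.0 Gy array lay below every other, while the 1.0 Gy and control arrays overlapped.

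Ms4a1, which encodes the B-cell surface protein CD20, had levels of 5.75, 8.15, 5.86 and 5.55 in the 4 mice at 3.0 Gy. At 1.0 Gy they were 9.73, 10.26, 9.63 and 10.01, and the controls ranged from 9.25 to 10.23. All 4 mice at 3.0 Gy were low, replicate 2 least so, and the difference was -3.58 ± 0.41 (12.0-fold lower; adjusted p = 8.28e-06). Cd79b and Cd79a encode the signalling chains of the B-cell receptor. Cd79b had levels of 5.16, 7.53, 5.56 and 4.90 at 3.0 Gy, and 8.79, 9.38, 8.50 and 8.74 at 1.0 Gy (difference -3.06 ± 0.41, adjusted p = 3.32e-05). Cd79a averaged 5.31 ± 0.58 at 3.0 Gy, 6.99 ± 0.14 at 1.0 Gy and 7.87 in controls (-1.69 ± 0.25, adjusted p = 6.91e-05). For Cd79a the controls, at 7.42 to 8.28, also lay above every 1.0 Gy array.

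Several transcription factors and coactivators of B cells fell. Pou2af1, a coactivator that works with octamer-binding factors on immunoglobulin genes, averaged 4.79 ± 1.56 at 3.0 Gy and 8.63 ± 0.33 at 1.0 Gy (-3.84 ± 0.49, adjusted p = 2.24e-05). Spib, an ETS-family factor, averaged 5.26 ± 1.26 at 3.0 Gy and 8.86 ± 0.37 at 1.0 Gy. Bach2, a repressor active in B and T cells, fell by 3.17 ± 0.35. Pax5, the factor that sets B-cell identity, was not called (0.01 ± 0.14, adjusted p = 0.977). It averaged 4.84 ± 0.25 at 3.0 Gy, 4.83 ± 0.15 at 1.0 Gy and 4.97 in controls. These means lay below those of Ttr, a marker of another tissue (6.76 at 3.0 Gy and 6.37 at 1.0 Gy). They do not by themselves show expression, so Pax5 cannot be set against the genes that fell. The wide SDs at 3.0 Gy come with replicate 2, in which Pou2af1 stood at 6.99 and Spib at 7.09, against 3.3 to 4.44 and 4.25 to 4.87 in the other 3 mice.

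Surface receptors and adaptors followed. Fcmr, the Fc receptor for IgM, fell by 3.36 ± 0.32, and Fcer2a, the low-affinity IgE receptor CD23, had a difference of -2.36 ± 0.22 (adjusted p = 3.41e-06 for both). Cd83 and Cd72, surface proteins of activated and mature B cells, had differences of -1.87 ± 0.18 and -2.46 ± 0.24 with the same adjusted p. Bank1, a scaffold of B-cell receptor signalling, averaged 4.44 ± 1.21 at 3.0 Gy, 7.86 ± 0.30 at 1.0 Gy and 8.21 in controls.

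Immunoglobulin and plasma-cell genes were less uniform. Of 14 tested, 7 were called lower (50%) and 1 higher (7.14%), against 22.7% and 15.9% of all genes, with a median difference of -0.37. The list averaged 5.25 ± 0.28 at 3.0 Gy, 6.08 ± 0.15 at 1.0 Gy and 6.17 ± 0.10 in controls. The variable-region gene Ighv14-2 had levels of 2.85, 4.19, 2.94 and 2.35 at 3.0 Gy, and 7.27, 7.35, 6.39 and 7.18 at 1.0 Gy. Its fall by 3.97 ± 0.34 (15.6-fold lower; adjusted p = 1.86e-06) was the largest of all genes tested, and 3 of the 4 levels at 3.0 Gy lay below the array median. Ighm, the IgM heavy chain, fell by 2.87 ± 0.37, although 1 of its 5 probe sets was called higher. Iglv1, a lambda light-chain segment, fell by 2.02 ± 0.30, and Irf4, a factor of B-cell activation and plasma cells, was lower too (-1.17 ± 0.18). Probe sets of immunoglobulin segments can bind related segments, so these values stand for families. Mzb1, an endoplasmic-reticulum protein of antibody-making B cells, averaged 6.90 ± 0.72 at 3.0 Gy and 8.09 ± 0.20 at 1.0 Gy (adjusted p = 0.00239), with arrays that overlapped because replicate 2 at 3.0 Gy stood at 7.97. The member called higher was Fkbp11, a secretory-pathway prolyl isomerase, with a difference of 0.36 ± 0.14 (adjusted p = 0.0476), a call lost under 14 alternatives besides the 18S covariate, among them the fits without 3.0 Gy replicate 4 (adjusted p = 0.104) and without 1.0 Gy replicate 1 (0.115).

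MHC class II molecules present peptides to CD4+ T cells and are made by B cells, dendritic cells and some monocytes. Their promoters are known for a conserved module in which an X box lies upstream of a Y box, and the RefSeq promoter table (GRCm38.p6, 250 bases before to 50 after the start) held promoters of 9 of the 15 list members. The Y box was searched as CTGATTGG on both strands and found in 3 of those 9 genes, against 4.7% of the 27025 genes in the table. All 9 genes were called lower, with or without the Y box, so the call does not set these 3 apart. The 3 stretches are shown because they carry the pair in the same arrangement. Capitals mark the Y box and, upstream of it, the letters GCAAC, which form part of the X box.

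H2-Aa: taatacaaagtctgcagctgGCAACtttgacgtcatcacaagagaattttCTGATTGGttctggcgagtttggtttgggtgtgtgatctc
H2-Eb1: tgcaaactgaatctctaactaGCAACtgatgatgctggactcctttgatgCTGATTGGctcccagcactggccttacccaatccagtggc
H2-Oa: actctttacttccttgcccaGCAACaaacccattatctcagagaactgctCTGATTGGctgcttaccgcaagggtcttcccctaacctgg

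All 3 are on chromosome 17. The H2-Aa stretch lies at chr17:34287835-34287924 on the minus strand, that of H2-Eb1 at chr17:34305755-34305844 on the plus strand and that of H2-Oa at chr17:34092283-34092372 on the plus strand. The Y box begins at positions -51, -62 and -46 from the start, and 25, 24 and 25 bases separate GCAAC from it. Such a pair, on the gene's strand with a gap of 20 to 28 bases, was present in 9 of all 32851 promoters (0.0274%). A match is a description of the letters, and the other 6 genes only lack this exact spelling in this window.

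Of the 15 class II genes tested, 11 were called lower (73.3%) and 0 higher, against 22.7% and 15.9% of all genes, with a median difference of -1.66. The mean level of the list was 6.34 ± 0.56 at 3.0 Gy, 8.00 ± 0.28 at 1.0 Gy and 8.53 ± 0.22 in controls. H2-Aa, the alpha chain of the I-A molecule, had levels of 7.80, 9.45, 7.68 and 7.0 at 3.0 Gy, and 11.20, 11.16, 10.21 and 10.94 at 1.0 Gy, with controls at 11.41 to 12.09. The 3 groups did not overlap, and the difference between the doses was -2.89 ± 0.36 (adjusted p = 1.89e-05). H2-Ab1, its beta chain, averaged 5.58 ± 1.08 at 3.0 Gy, 8.40 ± 0.41 at 1.0 Gy and 9.30 in controls. Cd74, the invariant chain that guides class II molecules to the endosome, fell by 2.46 ± 0.30 (adjusted p = 1.50e-05). H2-Ob and H2-Oa, which form the H2-O modulator of peptide loading in B cells, had differences of -3.71 ± 0.38 and -1.86 ± 0.24, both called. The class II genes also mark B cells, and H2-Ob stands in both lists.

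**Figure D3:**
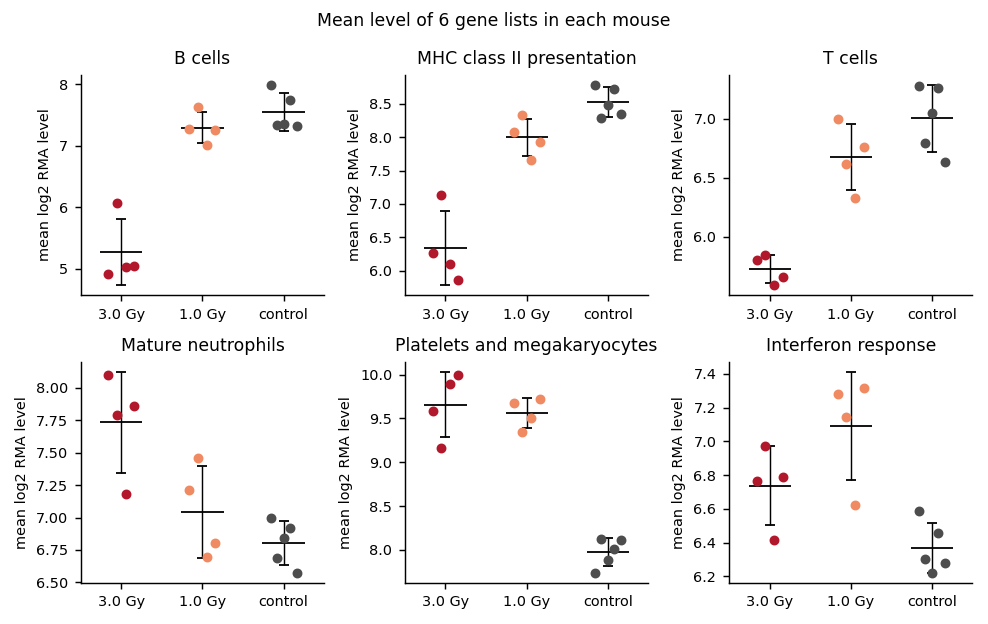
Mean log2 level of the tested members of 6 gene lists in each mouse (points), with the group mean (line) and SD (bar), for 3.0 Gy, 1.0 Gy and control. B-cell levels at 3.0 Gy (4.92 to 6.07) lie below all 1.0 Gy levels (7.02 to 7.62), whereas the platelet levels of both doses lie above the controls (7.74 to 8.13).

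T-cell genes fell as a group but unevenly. Of 31 tested, 19 were called lower (61.3%) and 1 higher (3.23%), against 22.7% and 15.9% of all genes. The median difference was -0.96, and the list averaged 5.72 ± 0.12 at 3.0 Gy, 6.68 ± 0.28 at 1.0 Gy and 7.01 ± 0.29 in controls. Cd8b1, the beta chain of the CD8 co-receptor, had levels of 4.75, 4.18, 4.03 and 4.42 at 3.0 Gy, and 7.08, 6.46, 5.89 and 6.81 at 1.0 Gy, with controls at 6.93 to 8.30. Every 3.0 Gy array lay below every 1.0 Gy array, and the difference was -2.22 ± 0.27 (4.65-fold lower; adjusted p = 1.51e-05). Cd8a, the alpha chain, gave a mixed picture: its brightest probe set averaged 6.77 ± 0.08 at 3.0 Gy and 6.55 ± 0.19 at 1.0 Gy, with 6.78 in controls, and was not called (adjusted p = 0.114), whereas 2 of its 5 probe sets were called lower, the furthest at -1.67. Cd4 averaged 5.84 ± 0.07 at 3.0 Gy and 5.89 ± 0.10 at 1.0 Gy and was not called (adjusted p = 0.720). Its means too lay below those of Ttr (6.76 and 6.37) and do not by themselves show expression. Among the members that fell, Il7r, the receptor for the survival cytokine interleukin 7, had a difference of -1.86 ± 0.27, Ccr7, which guides cells into lymph nodes, of -1.76 ± 0.27, and S1pr1, which guides them out, of -1.35 ± 0.18. The transcription factors Ets1 and Satb1 had differences of -2.97 ± 0.29 and -2.48 ± 0.36.

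Cd3e, a chain of the T-cell receptor complex, changed less. Its levels were 7.46, 7.49, 7.33 and 7.43 at 3.0 Gy, and 8.65, 7.93, 7.66 and 7.93 at 1.0 Gy, with controls at 7.75 to 8.27. The groups at the 2 doses did not overlap, and the difference was -0.62 ± 0.17 (adjusted p = 0.00863). The member called higher was Cd7, a surface protein of T and NK cells, at 7.78 ± 0.36 at 3.0 Gy, 7.28 ± 0.27 at 1.0 Gy and 6.82 in controls (0.51 ± 0.16, adjusted p = 0.0188), with overlapping arrays.

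Genes of NK and other cytotoxic cells showed few calls. Of 27 tested, 3 were called lower and 1 higher, shares under those of all genes in both directions, and the list averaged 5.17 ± 0.07 at 3.0 Gy, 5.33 ± 0.39 at 1.0 Gy and 5.18 ± 0.09 in controls. Klra7, a Ly49 receptor, fell by 1.18 ± 0.26 (adjusted p = 0.00191), and Tbx21 and Eomes, the T-box factors of NK cells and cytotoxic T cells, were lower, with differences of -0.63 ± 0.19 and -0.62 ± 0.23 (adjusted p = 0.0152 and 0.0415). Xcl1, a chemokine of NK and CD8+ T cells, was higher by 0.36 ± 0.13 (adjusted p = 0.0404). Ncr1, the NK receptor NKp46, had levels of 4.57 to 4.90 at 3.0 Gy and 3.89 to 5.25 at 1.0 Gy and was not called (adjusted p = 0.995). These levels lay below the Ttr means (6.76 and 6.37) and do not by themselves show expression. Members of the Ly49 family are close in sequence, so the Klra7 value may include related receptors.

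Neutrophil genes moved the other way. Of 31 tested genes of mature neutrophils, 18 were called higher and 0 lower, against 15.9% and 22.7% of all genes, with a median difference of 0.68. The list averaged 7.73 ± 0.39 at 3.0 Gy, 7.04 ± 0.36 at 1.0 Gy and 6.80 ± 0.17 in controls, and its array means at 3.0 Gy (7.18 to 8.10) overlapped those at 1.0 Gy (6.69 to 7.46). Without 3.0 Gy replicate 1, 11 members were called higher. S100a8 and S100a9 encode the subunits of calprotectin, a main protein of the neutrophil cytosol. S100a9 had levels of 12.92, 12.04, 11.77 and 12.73 at 3.0 Gy, and 10.29, 11.36, 10.73 and 10.46 at 1.0 Gy, with controls at 11.11 to 11.92. The difference was 1.66 ± 0.33 (3.15-fold higher; adjusted p = 0.000881), and the control mean of 11.57 lay between the doses. S100a8 showed the same order, with 12.57 ± 0.41 at 3.0 Gy, 11.19 ± 0.44 at 1.0 Gy and 12.03 in controls.

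Clec4d, a C-type lectin receptor of myeloid cells, had levels of 10.31, 9.80, 10.12 and 10.29 at 3.0 Gy, and 9.03, 9.34, 9.11 and 8.94 at 1.0 Gy, with controls at 8.17 to 8.91. Here the 3 groups were ordered by dose without overlap, and the difference between the doses was 1.02 ± 0.18 (adjusted p = 0.000334). Fpr2, a formyl-peptide receptor, averaged 8.00 ± 0.57 at 3.0 Gy, 6.75 ± 0.42 at 1.0 Gy and 6.56 in controls (adjusted p = 0.00774). Lcn2, an iron-withholding granule protein, rose by 1.34 ± 0.44 (adjusted p = 0.0239), and that call was lost under 3 alternatives besides the 18S covariate. Wfdc21 and Stfa2l1 rose by 1.66 ± 0.31 and 1.59 ± 0.30, and Stfa2l1 belongs to a stefin family whose members a probe set may not separate. G0s2, an inhibitor of lipid breakdown, was dimmer, at 4.50 ± 0.23 at 3.0 Gy, 3.82 ± 0.12 at 1.0 Gy and 4.41 in controls (adjusted p = 0.000292).

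Ifitm1, an interferon-inducible membrane protein that is also abundant in granulocytes, showed the largest rise of the called genes without overlap. Its levels were 10.96, 10.93, 9.90 and 11.10 at 3.0 Gy, and 9.06, 9.45, 8.67 and 8.50 at 1.0 Gy, with controls at 8.77 to 9.30. Only the 3.0 Gy arrays stood apart among these 3 groups, and the difference was 1.80 ± 0.36 (3.49-fold higher; adjusted p = 0.000899). Genes of immature granulocytes showed no common direction. Of 19 tested, 3 were called higher and 3 lower, 15.8% each, against 15.9% and 22.7% of all genes. The list averaged 6.36 ± 0.20 at 3.0 Gy, 6.30 ± 0.21 at 1.0 Gy and 6.36 ± 0.08 in controls. Pglyrp1, a bactericidal granule protein, and Mcemp1 rose by 0.67 ± 0.24 and 0.75 ± 0.25, as did Ltb4r1, the leukotriene B4 receptor, by 0.39 ± 0.13. Chil3, a chitinase-like protein of immature neutrophils and macrophages, fell by 1.16 ± 0.37 (adjusted p = 0.0200), and Serpinb1a, a protease inhibitor, and Mgst2 had called differences of -1.41 ± 0.27 and -0.58 ± 0.17.

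**Figure D4:**
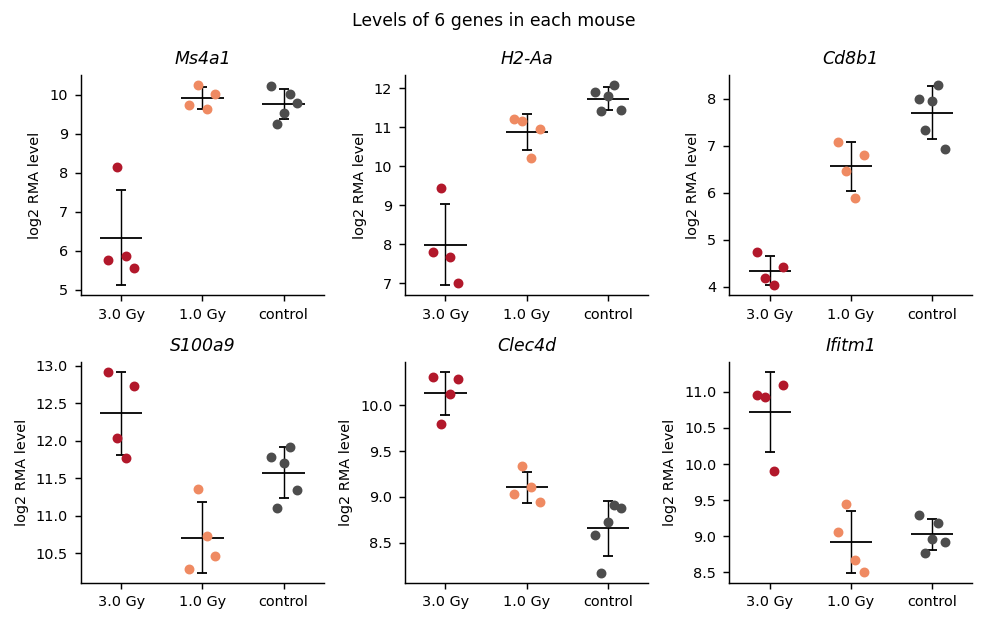
Log2 level in each mouse (points), with the group mean (line) and SD (bar), of the B-cell gene Ms4a1, the class II gene H2-Aa, the T-cell gene Cd8b1, the neutrophil genes S100a9 and Clec4d, and Ifitm1. The doses do not overlap in any of the 6 panels, which was a condition for naming Ms4a1, S100a9 and Ifitm1 among the largest changes. The controls lie at the 1.0 Gy level for Ms4a1 and Ifitm1.

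Monocyte genes gave calls in 1 direction. Of 30 tested, 9 were called lower and 0 higher, shares of 30% and 0%, against 22.7% and 15.9% of all genes, with a median difference of -0.41, and the list averaged 5.87 ± 0.29 at 3.0 Gy, 6.34 ± 0.38 at 1.0 Gy and 6.35 ± 0.12 in controls. Irf8, a factor of monocyte, dendritic-cell and B-cell development, fell by 2.06 ± 0.28 (adjusted p = 4.26e-05), and its 3.0 Gy replicate 2 was again the highest, at 5.85 against 4.11 to 4.67. Ccr2, the receptor by which monocytes leave the marrow, averaged 5.17 ± 0.38 at 3.0 Gy, 6.39 ± 0.30 at 1.0 Gy and 6.69 in controls. Ctss, a protease that trims the invariant chain, fell by 1.47 ± 0.27, and Cd36, a scavenger receptor, and Ms4a4c had differences of -1.22 ± 0.20 and -1.05 ± 0.17, both called. The 21 members without a call had differences on both sides of 0, and without 1.0 Gy replicate 3 the count called lower was 15. Of 17 dendritic-cell genes, 4 were called lower (23.5%, near the 22.7% of all genes) and 1, Cd7, higher (5.88%, against 15.9%). The list means were 5.27 ± 0.08 at 3.0 Gy, 5.52 ± 0.05 at 1.0 Gy and 5.51 ± 0.02 in controls. The 4 were Ly6d, also a B-lineage gene, Kmo, Tcf4 and Ccr9, with differences of -2.57 ± 0.35, -1.22 ± 0.17, -1.01 ± 0.19 and -0.46 ± 0.17, and Ccr9 turned to 0.38 (not called) with probe sets of shared types left out. Of 9 genes of eosinophils, basophils and mast cells, 1 was called higher (11.1%) and 0 lower, shares under the 15.9% and 22.7% of all genes. It was the histidine decarboxylase gene Hdc, higher by 0.67 ± 0.19. The list averaged 5.27 ± 0.21 at 3.0 Gy, 5.32 ± 0.32 at 1.0 Gy and 4.71 ± 0.16 in controls. Hdc, which is in the neutrophil list too, lost the call with the mean of all probe sets (0.40, adjusted p = 0.0608) and without the 2 arrays nearest the other dose (0.0578).

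Platelet genes were high at both doses and differed little between them. Their list averaged 9.66 ± 0.37 at 3.0 Gy, 9.56 ± 0.17 at 1.0 Gy and 7.98 ± 0.16 in controls, with a median difference of 0.11. Of 48 tested, 8 were called higher (16.7%, near the 15.9% of all genes) and 3 lower (6.25%, against 22.7%). The count called higher turned on single mice: it was 20 without 3.0 Gy replicate 2, 2 without 3.0 Gy replicate 3 or 4 or 1.0 Gy replicate 2, and 5 without 3.0 Gy replicate 1 or 1.0 Gy replicate 4. Pf4, the chemokine platelet factor 4, had levels of 13.44, 12.95, 13.72 and 13.65 at 3.0 Gy, and 12.93, 12.98, 13.16 and 13.03 at 1.0 Gy, with controls at 11.84 to 12.64. The doses overlapped, and the difference of 0.41 ± 0.16 was not called (adjusted p = 0.0507; called without 3.0 Gy replicate 2, adjusted p = 0.0053). P2ry1, a platelet receptor for ADP, rose by 0.85 ± 0.27 and Nfe2, the factor of platelet release, by 0.62 ± 0.17. Thbs1, a matrix glycoprotein of platelet granules, was lower by 0.67 ± 0.20 at 9.75 ± 0.39 at 3.0 Gy and 10.42 ± 0.19 at 1.0 Gy, against 7.54 in controls, a call lost with the mean of all probe sets (adjusted p = 0.0602). Tbxa2r, the thromboxane receptor, was called lower by 0.38 ± 0.10, but had -0.11 (adjusted p = 0.33) with quantile normalization repeated, and F5, clotting factor V, had -0.53 ± 0.20 (adjusted p = 0.0449).

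Of 50 red-cell genes tested, 13 were called higher (26%) and 12 lower (24%), against 15.9% and 22.7% of all genes. The share called lower was thus near that of all genes. The list had a median of -0.06 and means of 7.37 ± 0.12 at 3.0 Gy, 7.46 ± 0.11 at 1.0 Gy and 7.89 ± 0.17 in controls. The member with the largest fall, Slc25a37, the mitochondrial iron importer mitoferrin, had levels of 8.71, 10.13, 8.30 and 9.47 at 3.0 Gy, and 10.65, 11.33, 10.72 and 10.78 at 1.0 Gy, with controls at 10.70 to 12.05. It fell by 1.72 ± 0.34 (adjusted p = 0.000823). Bpgm, which makes the 2,3-bisphosphoglycerate that tunes haemoglobin, fell by 1.03 ± 0.19, and Slc2a1, a glucose transporter, and Tent5c, a poly(A) polymerase, had differences of -1.28 ± 0.27 and -1.23 ± 0.27. The transcription factor genes Gata1, Gfi1b and Tal1, which red-cell precursors share with megakaryocytes, rose by 0.82 ± 0.18, 0.79 ± 0.17 and 0.57 ± 0.16. Gata1 averaged 8.60 ± 0.40 at 3.0 Gy, 7.78 ± 0.33 at 1.0 Gy and 6.68 in controls, and Tal1 9.04 ± 0.33, 8.47 ± 0.19 and 6.90, the same order as the platelet list. Hbb-y, the embryonic beta-like globin, stood at 5.74 ± 0.19 at 3.0 Gy, 4.53 ± 0.35 at 1.0 Gy and 5.15 in controls, and globin probe sets can bind other globins.

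Interferon-response genes encode antiviral proteins and are switched on through a promoter element, the interferon-stimulated response element, read here as GAAA, any 2 bases and GAAA again, on either strand. Of 66 tested, 25 were called lower (37.9%) and 2 higher (3.03%), against 22.7% and 15.9% of all genes. The median was -0.25, and the list averaged 6.74 ± 0.23 at 3.0 Gy, 7.09 ± 0.32 at 1.0 Gy and 6.37 ± 0.15 in controls. The element was present in the RefSeq promoters of 24 of 52 list genes, against 3.99% of all 27025 genes. It was found in 5 of the 18 genes called lower (27.8%) and in 19 of the 34 others (55.9%), shares that were not tested against each other. The stretches of 4 genes, chosen after their values were seen, are shown as examples: Ifit1 and Ifit3, which were not called, and Rsad2 and Gbp3, which were called lower. Capitals mark the element, which in these 4 lies on the strand opposite to the gene and so reads TTTC, 2 bases and TTTC.

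Ifit1: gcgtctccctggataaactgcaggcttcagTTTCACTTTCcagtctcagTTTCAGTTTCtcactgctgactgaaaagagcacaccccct
Ifit3: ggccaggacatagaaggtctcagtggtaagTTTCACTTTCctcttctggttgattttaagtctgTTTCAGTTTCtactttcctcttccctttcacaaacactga
Rsad2: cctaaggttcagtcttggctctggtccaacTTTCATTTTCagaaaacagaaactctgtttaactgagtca
Gbp3: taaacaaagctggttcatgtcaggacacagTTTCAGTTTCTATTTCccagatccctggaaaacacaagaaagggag

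These lie at chr19:34640755-34640843 (plus strand), chr19:34583343-34583446 (plus strand), chr12:26456533-26456602 (minus strand) and chr3:142559969-142560044 (plus strand) in GRCm38.p6, in the order shown. The element occurs 2 times in the Ifit1, Ifit3 and Gbp3 stretches, overlapping itself in Gbp3, and 1 time in Rsad2.

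Ifit3, an inhibitor of viral RNA translation, had levels of 8.77, 8.81, 8.06 and 8.90 at 3.0 Gy, and 8.55, 8.08, 7.20 and 8.57 at 1.0 Gy, with controls at 5.37 to 5.59. Both doses stood far above the controls and overlapped each other, with a difference of 0.53 ± 0.23 (adjusted p = 0.0736). Its call changed with the setting, since it was called higher with the replicate number as a block (adjusted p = 0.0468), under both scalings (0.0234 and 0.0209) and without 1.0 Gy replicate 1 (0.0414), 1.0 Gy replicate 4 (0.0362) or 3.0 Gy replicate 3 (0.0236). Ifit1 likewise averaged 7.92 ± 0.21 at 3.0 Gy, 7.76 ± 0.66 at 1.0 Gy and 5.87 in controls. Slfn4, a Schlafen-family gene of myeloid cells that is in the neutrophil list too, was called higher, at 10.46 ± 0.70 at 3.0 Gy, 9.51 ± 0.41 at 1.0 Gy and 6.89 in controls (0.95 ± 0.32, adjusted p = 0.0278, lost under 4 alternatives besides the 18S covariate). The other member called higher, Ifi27l2b, stood at 4.63 ± 0.19 at 3.0 Gy and 4.07 ± 0.09 at 1.0 Gy.

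Of the 25 members called lower, the control mean lay between the doses in 13, below the 3.0 Gy mean in 7 and above the 1.0 Gy mean in 5. Gbp6, a guanylate-binding protein, had levels of 4.55, 4.89, 4.61 and 4.33 at 3.0 Gy, and 5.89, 5.81, 5.50 and 6.50 at 1.0 Gy, with controls at 4.42 to 5.49. Its 1.0 Gy arrays all lay above the other 2 groups, and the difference was -1.32 ± 0.20 (adjusted p = 0.000108). Parp9, an ADP-ribosyltransferase-family protein, averaged 5.75 ± 0.40 at 3.0 Gy, 6.92 ± 0.44 at 1.0 Gy and 6.03 in controls. Sp100, a nuclear-body protein, averaged 6.40 ± 0.43 at 3.0 Gy, 7.84 ± 0.36 at 1.0 Gy and 7.45 in controls (-1.44 ± 0.22, adjusted p = 8.46e-05). Rsad2, the antiviral enzyme viperin, and Gbp3 had differences of -0.77 ± 0.23 and -1.08 ± 0.24 (adjusted p = 0.0143 and 0.00228), and the means of Rsad2 were 11.20 at 3.0 Gy, 11.97 at 1.0 Gy and 12.31 in controls.

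**Figure D5:**
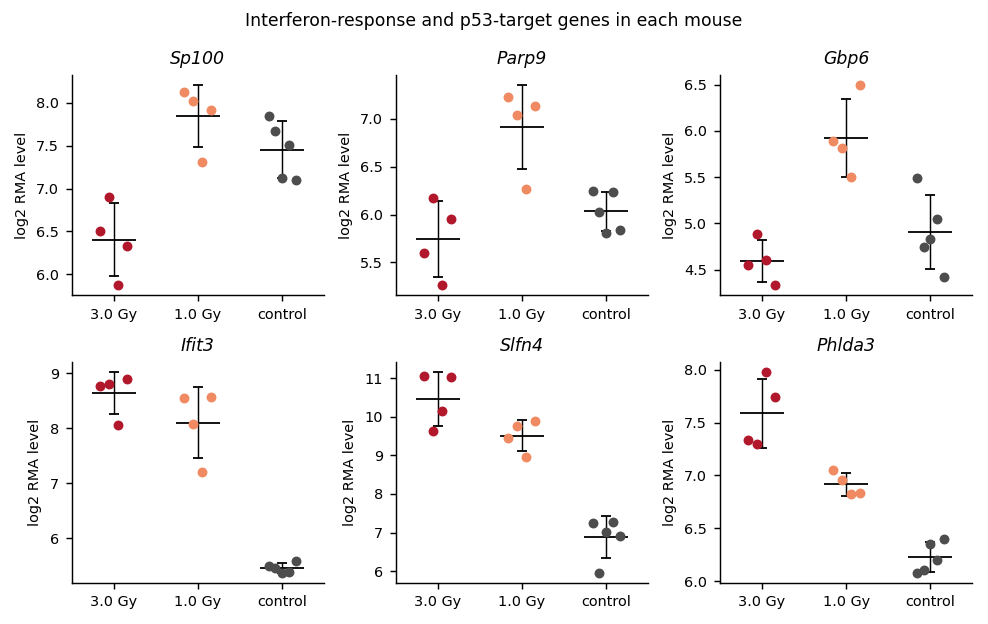
Log2 level in each mouse (points), with the group mean (line) and SD (bar), of the interferon-response genes Sp100, Parp9, Gbp6, Ifit3 and Slfn4 and the p53 target Phlda3. Gbp6 is highest at 1.0 Gy, whereas Ifit3 and Slfn4 stand far above the controls at both doses.

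MHC class I presentation shows peptides to CD8+ T cells. Of 19 of its genes tested, 13 were called lower (68.4%) and 1 higher (5.26%), with a median of -0.81. Over all genes the shares were 22.7% and 15.9%. The list averaged 7.13 ± 0.17 at 3.0 Gy, 7.82 ± 0.28 at 1.0 Gy and 7.64 ± 0.24 in controls. H2-K1, a classical class I heavy chain, had levels of 10.27, 10.63, 9.81 and 10.28 at 3.0 Gy, and 12.00, 11.93, 11.14 and 11.74 at 1.0 Gy, with controls at 11.36 to 12.02. The doses did not overlap, the controls lay at the 1.0 Gy level, and the difference was -1.45 ± 0.20 (adjusted p = 3.95e-05). Nlrc5, the transactivator of class I genes, fell by 1.42 ± 0.23, and the peptide-loading chaperones Pdia3, Calr and Canx were called lower too, with differences of -1.47 ± 0.22, -1.36 ± 0.25 and -1.19 ± 0.20. The member called higher, H2-Q10, a secreted class I molecule, stood at 7.78 ± 0.53 at 3.0 Gy and 6.74 ± 0.42 at 1.0 Gy (adjusted p = 0.0173), with overlapping arrays, and class I probe sets can bind several of these closely related genes.

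The p53 target list did not move one way. Of 26 tested, 2 were called higher and 9 lower, against 15.9% and 22.7% of all genes, with a median of -0.05 and list means of 5.51 ± 0.11 at 3.0 Gy, 5.75 ± 0.11 at 1.0 Gy and 5.48 ± 0.06 in controls. With quantile normalization repeated, 9 were called higher and 8 lower. Phlda3, a p53-induced inhibitor of the AKT kinase, had levels of 7.34, 7.30, 7.98 and 7.74 at 3.0 Gy, and 7.05, 6.96, 6.82 and 6.83 at 1.0 Gy, with controls at 6.08 to 6.40. The 3 groups were ordered by dose without overlap, and the difference was 0.67 ± 0.15 (adjusted p = 0.00190). Cdkn1a, the cell-cycle inhibitor p21, had levels of 5.97, 6.55, 5.86 and 5.75 at 3.0 Gy, and 5.84, 5.84, 5.49 and 5.90 at 1.0 Gy, with controls at 4.61 to 5.25. Both doses lay above every control, and the difference between them was 0.26 ± 0.16 (adjusted p = 0.204). It was called higher with quantile normalization repeated (0.52, adjusted p = 0.0177) and was -0.00 without the 2 arrays nearest the other dose. The other member called higher besides Phlda3 was Ier3, an immediate early gene (0.70 ± 0.21).

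Ccng1, cyclin G1, went the other way, at 6.71, 6.82, 6.38 and 6.67 at 3.0 Gy, and 7.26, 7.17, 6.78 and 7.30 at 1.0 Gy, with controls at 5.64 to 6.23. It was called lower by 0.48 ± 0.15 (adjusted p = 0.0184), with arrays that overlapped and a call lost under 7 alternatives besides the 18S covariate, and 1 of its 3 probe sets was called. Sesn1, a stress-induced inhibitor of growth signalling, fell by 1.49 ± 0.17, with 5.48 ± 0.13 at 3.0 Gy, 6.97 ± 0.23 at 1.0 Gy and 7.56 in controls. Arap2, a GTPase-activating protein, and Ppm1d, the phosphatase that shuts off p53 signalling, had differences of -1.61 ± 0.15 and -0.79 ± 0.12, and Btg2, an antiproliferative gene, -0.75 ± 0.18, all 3 called, the last lost when the probe set of largest variance was read (adjusted p = 0.0676). Rrm2b, a p53-induced subunit of ribonucleotide reductase, had a called difference of -0.72 ± 0.19. Mdm2, the ubiquitin ligase that degrades p53, averaged 5.28 ± 0.20 at 3.0 Gy, 5.39 ± 0.15 at 1.0 Gy and 5.26 in controls and was not called (adjusted p = 0.520).

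Among 26 genes of the BCL2 family and other death regulators, 3 were called higher and 6 lower, shares of 11.5% and 23.1% that lie near the 15.9% and 22.7% of all genes. The list averaged 5.94 ± 0.07 at 3.0 Gy, 6.15 ± 0.11 at 1.0 Gy and 5.99 ± 0.11 in controls. Bik, Bad and Casp9 rose by 0.60 ± 0.12, 0.48 ± 0.12 and 0.35 ± 0.13. Birc3, a death inhibitor, was called lower by 1.45 ± 0.20, but had -0.28 (adjusted p = 0.118) with probe sets of shared types left out. Apaf1, the apoptosome scaffold, had a difference of -1.28 ± 0.28, and the initiator caspase genes Casp8 and Casp2 and the survival factor Mcl1 were called lower too, with differences of -1.13 ± 0.20, -1.03 ± 0.18 and -1.13 ± 0.28. Among 32 genes of DNA damage signalling and repair, 2 were called higher and 9 lower, and the list averaged 4.68 ± 0.09 at 3.0 Gy, 4.96 ± 0.09 at 1.0 Gy and 5.0 ± 0.10 in controls. Apex1, the abasic-site endonuclease, fell by 1.02 ± 0.13 (adjusted p = 2.03e-05), and Prkdc, the kinase of end joining, and Msh6, a mismatch-repair protein, had differences of -0.92 ± 0.20 and -1.35 ± 0.26. The 2 called higher were Brca1 and Xrcc4, by 0.40 ± 0.14 and 0.41 ± 0.15. The shares called, 6.25% higher and 28.1% lower, compare with 15.9% and 22.7% of all genes.

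Of 31 genes of DNA replication, 9 were called lower and 4 higher, shares of 29% and 12.9% that lie near the 22.7% and 15.9% of all genes. The list averaged 5.13 ± 0.05 at 3.0 Gy, 5.48 ± 0.03 at 1.0 Gy and 5.53 ± 0.07 in controls. Several members encode the licensing machinery that loads the replicative helicase. Cdt1, the loading factor, had levels of 4.77, 5.54, 4.43 and 4.47 at 3.0 Gy, and 7.15, 6.78, 6.46 and 6.96 at 1.0 Gy, with controls at 6.67 to 7.28. The controls lay at the 1.0 Gy level, and the difference was -2.04 ± 0.22 (adjusted p = 5.54e-06). The helicase subunits Mcm6 and Mcm5 were lower, with differences of -1.91 ± 0.27 and -1.74 ± 0.23, and so was Rpa1, a single-strand binding subunit (-1.60 ± 0.21). Pcna, the polymerase clamp, fell by 1.19 ± 0.18, to 6.63 ± 0.13 at 3.0 Gy, against 7.82 ± 0.29 at 1.0 Gy and 8.16 in controls. The 4 called higher were E2f1, a factor that drives S-phase genes, Cdc45, Mcm10 and Orc1, by 0.50 ± 0.13, 0.45 ± 0.13, 0.44 ± 0.14 and 0.52 ± 0.19, and E2f1 had 0.11 (adjusted p = 0.51) with probe sets of shared types left out. Mitotic genes gave 1 call higher (3.7%) and 3 lower (11.1%) of 27 tested, shares under those of all genes. The list averaged 4.83 ± 0.02 at 3.0 Gy, 4.84 ± 0.06 at 1.0 Gy and 4.94 ± 0.06 in controls. With arrays set to 1 median, 9 were higher and 2 lower. Mki67, the proliferation antigen Ki-67, had levels of 5.05 to 6.01 at 3.0 Gy and 4.64 to 5.66 at 1.0 Gy and was not called (adjusted p = 0.325). Nusap1, a spindle protein, Ube2c, a ubiquitin carrier of mitotic exit, and Cks1b had differences of -0.82 ± 0.24, -0.53 ± 0.17 and -0.63 ± 0.24, all called. Nusap1 lost the call with the mean of all probe sets (-0.26, adjusted p = 0.11) and with quantile normalization repeated (0.0697), and Cks1b turned to 0.19 (not called) with probe sets of shared types left out. Cks2, a partner of cyclin-dependent kinases, rose by 0.52 ± 0.18.

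Genes of RNA processing fell widely. Of 101 splicing factors and hnRNPs tested, 68 were called lower (67.3%) and 4 higher (3.96%), against 22.7% and 15.9% of all genes. The median was -0.66, with list means of 5.53 ± 0.08 at 3.0 Gy, 6.30 ± 0.14 at 1.0 Gy and 6.40 ± 0.20 in controls. Sfpq, a splicing factor of paraspeckles, had levels of 2.99, 3.65, 3.01 and 2.81 at 3.0 Gy, and 6.05, 6.29, 5.62 and 6.14 at 1.0 Gy, with controls at 4.57 to 5.70. Its adjusted p of 3.02e-07 was the smallest of the list genes, its difference -2.91 ± 0.22 (7.52-fold lower), and 4 of its 5 probe sets were called the same way. At 3.0 Gy all levels but that of replicate 2 lay below the array median (3.54 to 3.57), so the size of the fall is uncertain. Prpf4b, a kinase of the spliceosome, fell by 2.49 ± 0.21, and the RNA-binding proteins Hnrnpa2b1, Hnrnph1 and Hnrnpm had differences of -2.20 ± 0.23, -1.98 ± 0.22 and -1.75 ± 0.18, all called. The 4 called higher were Srsf2, Lsm3, U2af1l4 and Lsm12, by 0.81 ± 0.25, 0.65 ± 0.20, 0.33 ± 0.13 and 0.66 ± 0.26, and Srsf2 had another probe set called lower.

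Falls were also frequent among genes of protein synthesis and breakdown. Over all genes, 22.7% were called lower and 15.9% higher. For translation initiation factors and for cytosolic ribosomal proteins the shares were 59.1% and 4.55%. They were 38.4% and 2.74% for mitochondrial ribosomal proteins, and 62.2% and 0% for the proteasome. Of 44 translation initiation factors, 26 were called lower and 2, Eif4a3 and Eif4ebp1, higher (median -0.62). The list averaged 6.30 ± 0.13 at 3.0 Gy, 6.88 ± 0.19 at 1.0 Gy and 6.98 ± 0.16 in controls. Eif3e, a subunit of the eIF3 scaffold, stood at 6.80 ± 0.30 at 3.0 Gy, 8.42 ± 0.30 at 1.0 Gy and 9.29 in controls. Of 44 cytosolic ribosomal protein genes, 26 were called lower and 2 higher (median -0.54), and the list averaged 9.03 ± 0.13 at 3.0 Gy, 9.51 ± 0.13 at 1.0 Gy and 10.18 ± 0.26 in controls. Rpl4 and Rpl6 had differences of -1.30 ± 0.19 and -1.31 ± 0.20, while Rpl39 and Rpl41 rose by 0.58 ± 0.16 and 0.69 ± 0.15, Rpl41 turning to -0.24 (not called) with probe sets of shared types left out. Rps4x had 1 probe set called lower and 1 higher, and probe sets of ribosomal proteins can bind their many pseudogenes. Of 73 mitochondrial ribosomal protein genes, 28 were called lower and 2, Mrps6 and Mrps5, higher (median -0.34). The list averaged 5.13 ± 0.13 at 3.0 Gy, 5.47 ± 0.10 at 1.0 Gy and 5.84 ± 0.19 in controls. Of 45 proteasome genes, 28 were called lower and 0 higher (median -0.48), with 17 and 18 lower without 1.0 Gy replicates 1 and 2. The list averaged 6.05 ± 0.10 at 3.0 Gy, 6.55 ± 0.18 at 1.0 Gy and 6.84 ± 0.23 in controls. They included the core subunit Psma1 and the regulatory subunits Psmd6 and Psmc5, with differences of -1.10 ± 0.18, -1.32 ± 0.23 and -0.88 ± 0.15, and Psma1 had -0.24 (adjusted p = 0.0581) with the mean of all probe sets.

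Among 64 heat shock protein genes, which encode chaperones, 23 were called lower (35.9%) and 6 higher (9.38%), with a median of -0.15. Over all genes the shares were 22.7% and 15.9%. The list averaged 5.58 ± 0.04 at 3.0 Gy, 5.93 ± 0.07 at 1.0 Gy and 5.89 ± 0.09 in controls. Hspa8, the constitutive HSC70 chaperone, had levels of 8.20, 8.95, 7.97 and 8.01 at 3.0 Gy, and 10.64, 10.12, 9.61 and 10.43 at 1.0 Gy, with controls at 9.19 to 9.91. The control mean lay between the doses, although the controls overlapped the 1.0 Gy arrays, and the difference was -1.91 ± 0.22 (adjusted p = 8.28e-06). Dnaja1, an HSC70 co-chaperone, showed the same order, with 5.70 ± 0.24 at 3.0 Gy, 7.67 ± 0.37 at 1.0 Gy and 6.82 in controls. Bag1, Bag3 and Hspb8, co-chaperones and a small heat shock protein, rose by 0.39 ± 0.12, 0.34 ± 0.10 and 0.40 ± 0.12. Hspa9 and Dnajc21 were called higher by 0.50 ± 0.15 and 0.55 ± 0.17 and called lower when the probe set of largest variance was read (-0.47 and -1.15), so their direction rests on the probe set.

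Respiratory chain genes were called in both directions, as were all genes. Of 74 genes of the chain and ATP synthase, 16 were called higher (21.6%) and 25 lower (33.8%). Over all genes the shares were 15.9% and 22.7%. The list had a median of -0.09 and means of 7.41 ± 0.04 at 3.0 Gy, 7.55 ± 0.04 at 1.0 Gy and 8.01 ± 0.25 in controls. Without 1.0 Gy replicate 1, or 3.0 Gy replicates 3 and 4 in turn, 7, 8 and 10 were called higher. Uqcrc2, a core subunit of complex III, Atp5a1, the alpha subunit of ATP synthase, and Ndufa9 of complex I had differences of -0.99 ± 0.15, -0.98 ± 0.15 and -1.02 ± 0.18, all called. Uqcr11, Cox6c and Cox6b1, small accessory subunits of complexes III and IV, rose by 0.88 ± 0.20, 0.88 ± 0.21 and 0.67 ± 0.18. Cox6c stood at 10.23 ± 0.30 at 3.0 Gy, 9.35 ± 0.52 at 1.0 Gy and 10.70 in controls, so its control level was nearer to that at 3.0 Gy.

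The control mean placed the called genes differently by direction. Of the 2016 genes higher at 3.0 Gy, the control mean lay between the doses in 1308, below the 1.0 Gy mean in 618 and above the 3.0 Gy mean in 90. Of the 2888 genes lower at 3.0 Gy, it lay above the 1.0 Gy mean in 1700, between the doses in 1116 and below the 3.0 Gy mean in 72. Among the 985 genes at least 2-fold lower the counts were 575, 409 and 1, with a median difference from control of -1.46 at 3.0 Gy and -0.07 at 1.0 Gy. Among the 33 at least 2-fold higher, the control mean lay below the 1.0 Gy mean in 22 and between the doses in 11, with median differences from control of 1.46 at 3.0 Gy and 0.21 at 1.0 Gy. No test is given for these positions, since the doses share the controls.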

How the data were processed

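Whole blood of 17 mice was measured on Affymetrix mouse arrays, 1 per mouse. Log2 values of 45101 probe sets were deposited by the authors, made with RMA (robust multi-array average) and R 3.3.2 per the submitters' processing notes. RMA corrects background, equalises the arrays' intensity distributions and pulls dim probe sets towards background, so folds of weak genes are understated. Its settings, detection calls and scan dates are not given in the sources used. In the platform annotation 34945 probe sets carried 1 symbol, 932 several (not named) and 9160 none; updating changed 0 symbols. A gene was read from its probe set of highest mean and kept if above the array's 50th percentile in at least 4 arrays. Limma 3.58.1 in R 4.3.3 fitted 4 group means over all 17 arrays, and the 3.0 minus 1.0 Gy contrast was adjusted by Benjamini-Hochberg over 12696 genes (two-sided, threshold 0.05). On data simulated for this comparison over 12696 genes, 90 of 100 genes changed by 1 and 99 of 100 changed by 2 on the log2 scale were recovered. There were 19 false calls beside them. The simulated noise was independent between genes and mice, with 1 SD per gene for all groups, so it lacks the unequal spreads of some genes here. Array measures were tested by exact permutation. The 33 gene lists matched 1299 entries, of which 1174 were tested; 92 list names are not used here. The members and lists were chosen with earlier results of these data known. Named by rule were the 12 largest rises and falls among called genes without overlap, up to 5 called members of each list per direction with the smallest p, and 14 given genes, not all of which are reported here; Ifit1, Rsad2, Gbp3, Pax5, Cd8a and Cd4 were chosen after their values were seen. Not all of the 251 named genes are described, and those described were partly picked with their stability under the alternatives known; counts of kept and lost calls cover all 251. Per the labels the mice are biological replicates. Alternatives were the scaling, the filter, the choice of probe set, array weights, the replicate block, the 18S covariate, leaving out mice and fitting the 8 arrays alone. The number of arrays limits the precision.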

Additional observations from a re-analysis of the deposited data

Results flagged for a closer look

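In groups of 4 mice, a gene's level in 1 mouse was taken to stand apart when its gap to the nearest other mouse, as a share of the group's range, exceeded Dixon's 95% critical value. Of 512 groups tested over the 251 named genes and 5 array measures, 25 held such a mouse, and chance gives about 1 in 20. The mouse was 3.0 Gy replicate 2 in 10 of these and 1.0 Gy replicate 3 in 8, the arrays nearest the other dose on the first principal component.

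Replicate 2 at 3.0 Gy was high in 6 B-cell and class II genes. It stood at 8.15 for Ms4a1, against 5.55 to 5.86 in the other 3 mice, at 6.97 for Fcmr (others 5.24 to 5.46), at 8.90 for Ighm (6.61 to 7.0), at 7.97 for Mzb1 (6.45 to 6.63), at 6.71 for H2-Oa (5.54 to 5.61) and at 6.18 for Cd79a (4.96 to 5.05). It was also high in Ifi27l2b at 4.91 (4.50 to 4.56), Eif3d at 6.39 (5.26 to 5.40) and St13 at 5.56 (5.15 to 5.21) and low in Tbx21 at 4.27 (4.50 to 4.51).

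Replicate 3 at 1.0 Gy was low in 7 genes that are not cell markers: Canx at 7.21, against 8.01 to 8.08 in the other 3 mice, Nlrc5 at 6.04 (6.76 to 6.85), Psmd6 at 5.55 (6.01 to 6.06), Psmd12 at 5.20 (5.87 to 5.91), Hnrnpm at 5.93 (6.44 to 6.48), Hnrnpa2b1 at 7.65 (8.22 to 8.25) and Cdkn1a at 5.49 (5.84 to 5.90). It was high in Tmem202 at 3.83 (3.19 to 3.28). Replicate 3 at 3.0 Gy was low in Ifitm1 at 9.90 (10.93 to 11.10) and Ifit3 at 8.06 (8.77 to 8.90), and replicate 4 at 3.0 Gy in Ms4a4c at 6.77 (6.88 to 6.90). Replicate 4 at 3.0 Gy was high in Cd4 at 5.94 (5.79 to 5.81), replicate 1 at 3.0 Gy in H1f8 at 4.52 (4.10 to 4.16), and replicate 4 at 1.0 Gy in Bag3 at 5.24 (4.95 to 4.97) and Ccrl2 at 4.61 (4.24 to 4.27).

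Probe sets without a gene symbol were outside the comparisons above. Of 3303 that passed the same filter, 1043 were called between 3.0 Gy and 1.0 Gy (31.6%), 502 higher and 541 lower.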

How the results depend on the processing

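The fit over all genes was repeated under 30 alternatives. The 18S level as a covariate gave 0 genes for every count, and the cause of that loss was not tested. Otherwise the count called stayed within 1.5 times of 4904; leaving out 1 mouse gave 3566 to 5759. The count higher was 3862 with arrays set to 1 median, 3557 with quantile normalization repeated and 1090 with the filter at the 75th percentile (fewer genes tested), and 1200 to 2532 leaving out 1 mouse. Under these 2 scalings the median of all genes was 0.18 and 0.15, against 0.06, and 61.2% and 59% of calls were then higher, against 41.1%. The count at least 2-fold higher was 52 with array weights, 61 and 70 under the scalings, 144 without the 2 arrays nearest the other dose (an alternative chosen after seeing the data) and 18 to 115 leaving out 1 mouse. The count at least 2-fold lower was 457 with the mean of all probe sets. The cause of these shifts was not tested. With the replicate number as a block 5032 genes were called, 2045 higher and 2987 lower, 4696 of them shared with the fit without it; same-numbered arrays deviated together with r of -0.007, 0.495, 0.353 and 0.234, and 1.0 Gy replicate 1 correlated best with another number (0.191), so the numbers were not taken as pairs.

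Of 241 called genes among the 251 named, 167 kept the call under every alternative but the 18S covariate and 74 lost it under some other. The mean of all probe sets ended 24 calls, the 8 arrays alone 23, the 2 arrays left out 15, probe sets of shared types left out 13, repeated quantile normalization 10 and the replicate block 4. Leaving out 1 mouse ended 55; each follows the mouse without which its adjusted p was highest, with that p in brackets: without 3.0 Gy replicate 1 Il1b (0.16), U2af1l4 (0.125), Slfn4 (0.0936), Cks2 (0.0912), H2-Q10 (0.0582); without 3.0 Gy replicate 2 Cks1b (0.142), Tax1bp1 (0.117), Ccrl2 (0.0883); without 3.0 Gy replicate 3 Xcl1 (0.15), Mrps5 (0.142), P2rx1 (0.119), Mrps6 (0.118), P2ry1 (0.082), Tbxas1 (0.0815), Ube2c (0.0789), Lsm3 (0.076), Srsf2 (0.0717), Ccng1 (0.0668), Eif4ebp1 (0.0665), Chil3 (0.062), Rsad2 (0.058), Bag3 (0.0527); without 3.0 Gy replicate 4 H2az2 (0.0874); without 1.0 Gy replicate 1 Xrcc4 (0.166), Ccr9 (0.155), F5 (0.15), Eomes (0.147), Fosl2 (0.134), Brca1 (0.125), Nlrp3 (0.125), Tlr12 (0.122), Fkbp11 (0.115), Ackr4 (0.111), Egr3 (0.101), Gstm1 (0.101), Ltb4r1 (0.0883), Tnf (0.0871), Hspa9 (0.0547), Mgst2 (0.0538); without 1.0 Gy replicate 2 Lsm12 (0.185), Orc1 (0.123), Casp9 (0.119), Tlr9 (0.109), Irak1 (0.0889), Cd7 (0.0784), Mcm10 (0.0735), Bag1 (0.0633), Nr4a3 (0.0572), Gstm5 (0.051); without 1.0 Gy replicate 4 Pglyrp1 (0.1), Mcemp1 (0.0812), Lcn2 (0.0758), Tbx21 (0.0639), Dnajc21 (0.0576), Ier3 (0.0506).

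In 9 called genes the direction turned under an alternative other than the 18S covariate: with probe sets of shared types left out Ccr9 (0.38), Cks1b (0.19), H2az2 (0.30), Rpl41 (-0.24) and Hspa9 (-0.47, called); with the probe set of largest variance Fosl2 (-0.14), Mrps5 (-0.14), Rpl41 (-0.24), Hspa9 (-0.47, called) and Dnajc21 (-1.15, called); with the mean of all probe sets Egr3 (-0.05) and Hspa9 (-0.00). With the 18S covariate Rrm2b (0.32), Serpinb1a (0.11), H2az2 (0.11), Cks1b (0.66), Itgb5 (-0.01), Tbxas1 (-0.03) and Cdc45 (-0.06) turned too. In 8 named genes another probe set was called the opposite way. Genes not called turned as well: Cdkn1a (-0.00 without the 2 arrays), Mdm2 (0.22 with the 18S covariate, 0.00 with 1 median, 0.07 with quantile normalization, 0.12 with the mean of probe sets and 0.40 with the one of largest variance), Ncr1 (0.12 and 0.10 under the scalings, -0.27 to 0.18 leaving out 1 mouse), Ifit1 (-0.54 with the 18S covariate, -0.08 with array weights, -0.17 without the 2 arrays, -0.12 to 0.38 leaving out 1 mouse), Pax5 (-0.30, -0.09 and -0.07 in the same order, -0.10 to 0.08 leaving out 1 mouse), Cd8a (-0.45 with the mean of probe sets, -1.67 with the one of largest variance and -0.53 with shared types left out, all called) and Cd4 (0.07 with 1 median, 0.19 with quantile normalization, 0.08 with the mean of probe sets). The causes were not tested. The array median differed by 0.045 to 0.069 leaving out 1 mouse; without 1 of the 3.0 Gy mice its exact permutation p was 0.0571. The 3' minus 5' level of the Actb control probe sets, a measure of RNA quality, differed between the doses by -0.011, and by -0.075 to 0.018 leaving out 1 mouse, and was not called. The number of arrays limits the precision, and falls of genes that reach the array median may be understated.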

Other observations

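Genes of oxidative-stress defence, which detoxify peroxides and restore thiols, held more rises than falls: of 34 tested, 12 were called higher and 4 lower, against 15.9% and 22.7% of all genes, with a median difference of 0.32. The list averaged 7.74 ± 0.11 at 3.0 Gy, 7.56 ± 0.06 at 1.0 Gy and 7.75 ± 0.12 in controls, so the controls lay at the 3.0 Gy level, and without 1.0 Gy replicate 2 or 3.0 Gy replicate 4 the count called higher was 7. Srxn1, sulfiredoxin, had levels of 9.06, 8.04, 9.54 and 9.43 at 3.0 Gy, and 8.09, 7.67, 8.26 and 8.30 at 1.0 Gy, with controls at 6.14 to 7.31 (0.94 ± 0.27). The doses overlapped through 3.0 Gy replicate 2, and both lay above every control. Gsr, glutathione reductase, and Hmox1, haem oxygenase 1, rose by 0.62 ± 0.18 and 0.37 ± 0.10, whereas Keap1, the sensor that holds back the NRF2 factor, and Gstp1, a glutathione transferase, had called differences of -0.76 ± 0.15 and -0.55 ± 0.15. The other 2 called lower were Txnrd1 (-0.75 ± 0.19) and Gstm1 (-0.53 ± 0.18). Of 17 histone genes, 6 were called higher (35.3%) and 2 lower (11.8%), against 15.9% and 22.7% of all genes (median 0.35). Without 3.0 Gy replicate 2, 10 were called higher. The list averaged 6.25 ± 0.25 at 3.0 Gy, 5.99 ± 0.09 at 1.0 Gy and 5.90 ± 0.12 in controls. H2ac19, a core histone H2A gene, averaged 11.26 ± 0.47 at 3.0 Gy, 10.57 ± 0.20 at 1.0 Gy and 9.78 in controls, and its probe set is of a type that can bind several histone genes. H1f10, a linker histone, rose by 0.54 ± 0.13, and H3f3a, a replacement histone H3, fell by 0.67 ± 0.18. The other member called lower, H2az2 (-0.49 ± 0.18), turned to 0.30 (not called) with probe sets of shared types left out.

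Genes of NF-kB signalling and inflammation gave 13 calls lower (41.9%) and 5 higher (16.1%) of 31 tested, with a median of -0.33. Over all genes the shares were 22.7% and 15.9%, so the share called higher was near that of all genes. The list averaged 5.43 ± 0.11 at 3.0 Gy, 5.83 ± 0.15 at 1.0 Gy and 5.94 ± 0.16 in controls. The 5 called higher were Il1rn, Tlr4, Tnf, Nlrp3 and Il1b, the last 3 by 0.38 ± 0.13, 0.35 ± 0.13 and 0.77 ± 0.30. Ikbkb, the kinase that releases NF-kB, fell by 1.53 ± 0.24, and the pathway inhibitors Nfkbie and Tnfaip3 were called lower too, with differences of -1.10 ± 0.15 and -0.88 ± 0.13. Il1rn, the interleukin 1 receptor antagonist, and Tlr4, the receptor for endotoxin, rose by 0.60 ± 0.16 and 0.53 ± 0.11. Of 34 immediate early genes, 10 were called lower and 5 higher (29.4% and 14.7%, near the 22.7% and 15.9% of all genes; median 0.03), and with quantile normalization repeated 8 were lower and 13 higher. The list averaged 6.20 ± 0.18 at 3.0 Gy, 6.34 ± 0.15 at 1.0 Gy and 6.44 ± 0.13 in controls. The 5 were Ier3, Maff, Nr4a3, Egr3 and Fosl2, by 0.33 to 0.70, and Egr3 and Fosl2 turned to -0.05 and -0.14 when other probe sets were read. Zfp36l1, an mRNA-decay protein, had levels of 5.68, 5.87, 4.97 and 5.17 at 3.0 Gy, and 7.86, 7.74, 7.02 and 8.17 at 1.0 Gy, with controls at 7.27 to 8.32, a fall by 2.27 ± 0.26. Klf2, a factor of lymphocyte quiescence, fell by 1.25 ± 0.22. Of 18 Toll-like receptor genes, 3 were called higher and 3 lower, 16.7% each, against 15.9% and 22.7% of all genes. The list averaged 5.09 ± 0.14 at 3.0 Gy, 5.17 ± 0.15 at 1.0 Gy and 5.14 ± 0.07 in controls. Tlr4, Tlr9 and Tlr12 were higher, the last 2 by 0.33 ± 0.12 and 0.32 ± 0.12, and Tlr1, Tlr7 and Irak1 lower, the last 2 with differences of -0.46 ± 0.13 and -0.42 ± 0.14. Tlr1, which pairs with TLR2, averaged 3.67 ± 0.20 at 3.0 Gy, 5.58 ± 0.32 at 1.0 Gy and 5.92 in controls. Of 17 chemokine receptor genes, 5 were called lower and 2, Ackr4 and Ccrl2, higher (29.4% and 11.8%, near the shares of all genes), with list means of 5.12 ± 0.10 at 3.0 Gy, 5.46 ± 0.12 at 1.0 Gy and 5.61 ± 0.11 in controls. Cxcr5, which guides B cells into follicles, averaged 3.84 ± 1.20 at 3.0 Gy, 6.54 ± 0.49 at 1.0 Gy and 6.65 in controls, and Ccr6, a receptor of B cells and some T cells, fell by 1.31 ± 0.21. Of 29 autophagy genes, 3 were called higher and 6 lower (10.3% and 20.7%, near the shares of all genes; median 0.03), with list means of 6.47 ± 0.09 at 3.0 Gy, 6.50 ± 0.05 at 1.0 Gy and 6.60 ± 0.11 in controls. Map1lc3a, a membrane-bound autophagosome protein, Atg7 and Gabarapl1 rose by 0.55 ± 0.12, 0.50 ± 0.11 and 0.62 ± 0.18, and Nbr1, a cargo receptor, fell by 0.84 ± 0.18.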
